A study of Homo sapiens with 4 samples.

Results

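The 10 genes described here encode the kinases and mediators of the DNA damage checkpoint: ATM, ATR, ATRIP, CHEK1, CHEK2, MRE11, RAD50, NBN, MDC1 and TOPBP1. They were chosen by name as a known pathway, with earlier results of these data known, and each gene symbol matched 1 row of the deposited count table, 10 of 63241 genes in all. RNA was sequenced from FT190, a human cell line labelled as ovarian epithelial and known to derive from immortalised fallopian tube secretory cells. 2 control libraries (Ctrl, with the PLKO vector) were compared with 2 libraries in which a hairpin RNA (shSMARCA4, treatment SMARCA4_sh1) depletes SMARCA4, the ATPase of SWI/SNF chromatin remodelling complexes. Both groups are labelled wild type in genotype, and both grew in RPMI medium with serum, with no damaging agent named. The labels give 1 hairpin treatment, SMARCA4_sh1, without its sequence, and nothing in them says that replicates were separate cultures. The p-values therefore set the group differences only against the spread of these libraries, and that spread may be technical.

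A cell that meets broken or incompletely replicated DNA holds its cell cycle through this pathway. The complex of MRE11, RAD50 and NBN binds broken ends and recruits ATM, which activates CHEK2 and marks chromatin that MDC1 then reads. Single-stranded DNA at stalled forks recruits ATR through ATRIP, TOPBP1 switches ATR on, and ATR activates CHEK1, which restrains the cyclin-dependent kinases. Much of this control acts on proteins already made, by phosphorylation, which transcript levels do not show.

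SMARCA4 transcripts stood at 171 and 162 CPM (counts per 1000000, after scaling) in the controls and 34 and 36.3 CPM after depletion, a log2 fold change of -2.24 (SE 0.052; edgeR, adjusted p = 1.86e-07). The libraries summed to between 27137414 and 33641343 counts, and 1 read was worth 0.0305 to 0.0362 CPM. The least abundant of the 10 genes, ATRIP, still had 483 to 686 reads per library. Of 8 secretory and Müllerian epithelial markers 3 fell, KRT7 (from 631 and 561 CPM to 307 and 302 CPM, a log2 fold change of -0.97), KRT8 (-0.44) and KRT18 (-0.23), and 2 rose, WT1 (0.35) and CD44 (0.60). The Müllerian factor PAX8 stood at 0.11 and was not called, while the secretory product OVGP1 had 6 to 7 reads and EPCAM 7 to 18. Of 9 fibroblast and smooth muscle markers, 6 fell and 3 were too low to test, and their summed levels were 2606 and 2612 CPM in control cells against 1787 and 1923 CPM after depletion. COL1A1 led that list while COL1A2, COL3A1 and DCN had 10 reads or fewer in every library. Ciliated markers summed to at most 1.07 CPM (DNAH9 had no read), endothelial ones to at most 1.23 CPM, and immune ones to between 23.2 and 25.7 CPM, nearly all of it CD68. The part of these markers in the results below was not tested. In bulk RNA, fewer cells of a type and less RNA per cell cannot be told apart.

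Before the values, the start regions of 4 of the genes are shown, because transcription of the counted genes starts there or nearby. ATM and CHEK2 rose, ATRIP fell and ATR had overlapping groups, and no window of NBN was used here. RefSeq windows of 300 bases on GRCh38.p14, from 250 bases before to 50 after a start, matched 9 of the 10 genes. Where a gene had several windows, the one nearest the start of the counted transcript was taken. Each is printed 5′ to 3′ on the gene's own strand. Capitals mark CCAAT boxes (CCAAT, or ATTGG on the other strand) and the cell cycle homology element (TTTGAA), both searched on both strands. The ATM window is chr11:108222817-108223116 on the plus strand, CHEK2 is chr22:28741771-28742070 on the minus strand, ATRIP is chr3:48446487-48446786 on the plus strand and ATR is chr3:142578684-142578983 on the minus strand.
ATM: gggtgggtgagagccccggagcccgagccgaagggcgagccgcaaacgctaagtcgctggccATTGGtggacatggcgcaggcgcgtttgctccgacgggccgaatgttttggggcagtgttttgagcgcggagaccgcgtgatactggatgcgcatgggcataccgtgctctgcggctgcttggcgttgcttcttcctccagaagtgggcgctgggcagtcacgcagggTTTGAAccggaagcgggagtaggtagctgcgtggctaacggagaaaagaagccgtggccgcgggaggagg
CHEK2: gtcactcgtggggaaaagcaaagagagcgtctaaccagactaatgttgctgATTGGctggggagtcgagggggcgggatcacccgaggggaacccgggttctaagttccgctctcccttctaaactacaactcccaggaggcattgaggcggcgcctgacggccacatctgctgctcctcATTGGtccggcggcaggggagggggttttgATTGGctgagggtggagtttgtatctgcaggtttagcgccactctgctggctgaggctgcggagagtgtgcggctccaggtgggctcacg
ATRIP: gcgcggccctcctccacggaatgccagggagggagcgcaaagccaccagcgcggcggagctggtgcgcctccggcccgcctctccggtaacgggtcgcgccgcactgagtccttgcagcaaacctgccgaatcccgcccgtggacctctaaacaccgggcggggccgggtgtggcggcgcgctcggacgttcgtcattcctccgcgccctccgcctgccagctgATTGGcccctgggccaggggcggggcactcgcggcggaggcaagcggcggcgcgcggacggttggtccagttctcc
ATR: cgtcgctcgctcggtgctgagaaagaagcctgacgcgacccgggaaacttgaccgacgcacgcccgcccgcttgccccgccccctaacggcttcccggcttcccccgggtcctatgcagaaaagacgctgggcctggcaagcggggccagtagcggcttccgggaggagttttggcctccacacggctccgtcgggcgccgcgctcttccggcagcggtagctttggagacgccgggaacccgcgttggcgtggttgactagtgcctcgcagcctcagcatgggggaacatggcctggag

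CHEK2 carried 3 CCAAT boxes, ATM and ATRIP 1 each, and ATR none, where 34.6% of 35116 windows of this length hold at least 1. ATM also held 1 TTTGAA, as did MDC1, against 15.2% of windows. Of the other genes, MRE11 and MDC1 held 2 CCAAT boxes each, CHEK1 1, and RAD50 and TOPBP1 none. TOPBP1 was the 1 gene of the 9 with an E2F site (searched as TTTCCCGC, TTTCGCGC, TTTGCCGC and TTTGGCGC on both strands), a motif in 3.31% of windows. GC boxes (GGGCGG, both strands), found in 45% of windows, are not capitalised and occurred in every matched window except that of ATM. The windows lay at or within 1061 bases of the counted starts, at 0 bases for 5 genes. The distance was 244 bases for ATM, 439 for TOPBP1, 602 for CHEK2 and 1061 for CHEK1. The counted starts of TOPBP1, CHEK2 and CHEK1 lie outside their windows. These matches are letters in a window and do not show that a factor binds there.

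By CPM per kilobase of counted exon (RPKM), the only scale here on which levels of different genes can be set side by side, TOPBP1 was the most abundant of the 10 genes in control cells at 31.6 ± 0.436 RPKM (SD, n = 2). RAD50 followed at 19.96 ± 0.0835 and MDC1 at 14.5 ± 0.713 RPKM. CHEK1 (13.3 ± 0.354 RPKM), NBN (13.1 ± 0.257 RPKM) and ATR (12.6 ± 0.541 RPKM) came next, and each of these overlapped its neighbour in the order between libraries. CHEK2 (9.96 ± 0.330 RPKM), MRE11 (6.28 ± 0.386 RPKM), ATM (5.36 ± 0.102 RPKM) and ATRIP (4.50 ± 0.139 RPKM) made up the lower end, each separate from the next. ATM was thus listed at a lower level than its sister kinase ATR, although it had the longest counted transcript, 13120 bases against 8065. By CPM, which does not allow for length, the ranks of NBN and ATR rose to the third and the fourth. In shSMARCA4 cells CHEK2 moved above ATR, at 13.2 ± 0.655 RPKM against 12.6 ± 0.0386 RPKM, and ATM above MRE11, at 6.75 ± 0.0345 against 5.58 ± 0.147 RPKM.

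**Figure D1:**
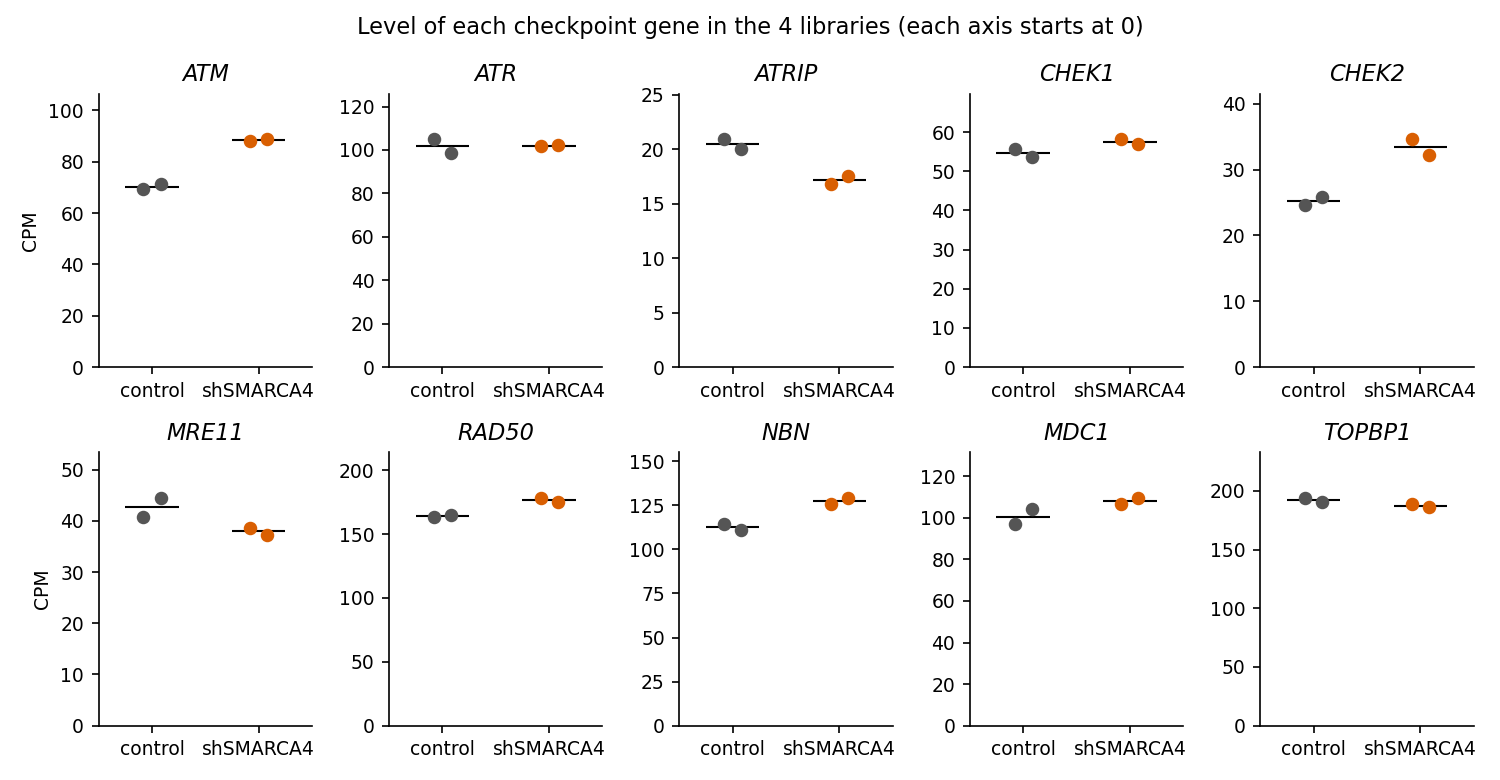
Level of each checkpoint gene in CPM (vertical axes, each from 0) in the 2 control and 2 shSMARCA4 libraries, with points for libraries and lines for group means. ATM, CHEK2 and NBN, which were called, lie higher in both shSMARCA4 libraries, as do CHEK1, RAD50 and MDC1, which were not called. ATRIP, which was called, lies lower, as do MRE11 and TOPBP1, which were not called. The ATR groups overlap.

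The comparison asked which of these transcripts changed when SMARCA4 was depleted, in a study whose title concerns BRCA1-dependent repair. ATM, CHEK2 and NBN rose, ATRIP fell, and ATR, CHEK1, MRE11, RAD50, MDC1 and TOPBP1 did not pass the test. All 10 genes passed the filter on low counts. Genes are called where edgeR's quasi-likelihood p, adjusted by Benjamini-Hochberg over the 18781 genes tested, was under 0.05. The 4 calls of 10 stand beside 29.7% of all genes tested and 36% of protein-coding genes. The 3 rises of 10 stand beside 13.8% of genes that rose, and the 1 fall beside 15.8% that fell. The share called, 40%, is near that of protein-coding genes. The groups did not overlap in 9 of the 10 genes, against 65.9% of all genes tested. The log2 fold changes ran from -0.26 to 0.41 with a median of 0.09, against a median of -0.0045 over all genes tested and a median absolute change of 0.37 among genes called.

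**Figure D2:**
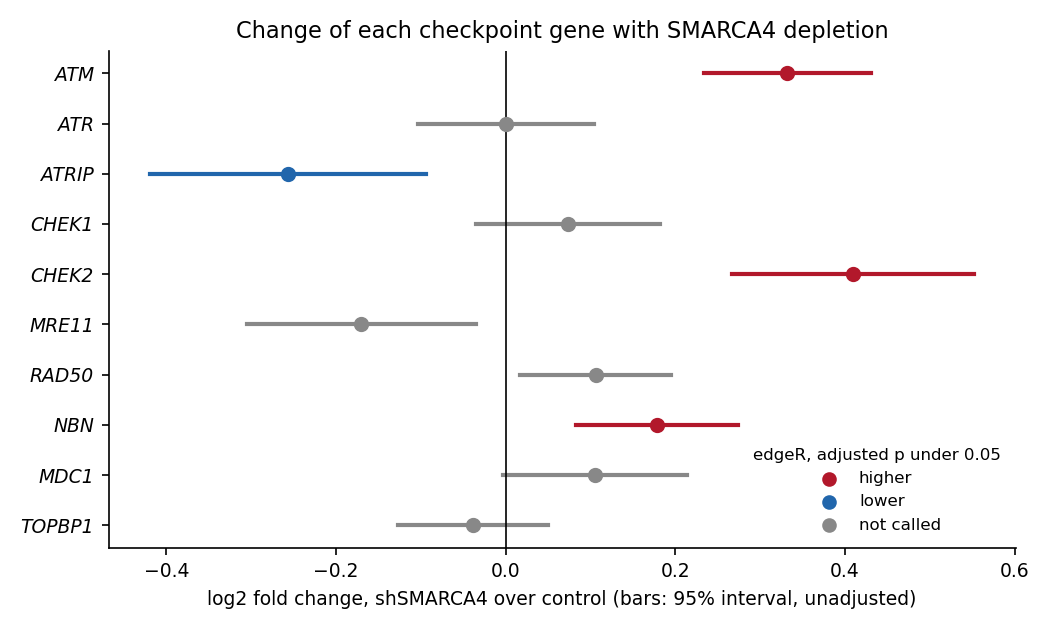
Log2 fold change of shSMARCA4 over control cells for each gene (points) with its unadjusted 95% interval (bars), coloured by the edgeR call. CHEK2 at 0.41 and ATM at 0.33 lie farthest to the right, ATRIP at -0.26 farthest to the left, and ATR at 0.00 on the line.

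Of the apical kinases, ATM (ENSG00000149311.21, chromosome 11, 108222823 to 108369102 on the plus strand, in hg38) responds to double-strand breaks. Its level was 69.4 and 71.2 CPM without knockdown and 88.2 and 88.8 CPM with it. Both shSMARCA4 libraries lay above both controls, and the gap between groups was many times that within them. Its log2 fold change was 0.33 (SE 0.043), a 1.26-fold higher level (95% interval 1.18 to 1.35; edgeR's quasi-likelihood test, adjusted p = 6.13e-04). The call held in all 14 alternatives run, with log2 fold changes of 0.32 to 0.38.

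ATR (ENSG00000175054.16, chromosome 3, 142449235 to 142578733 on the minus strand), the kinase of stalled forks, stood at 105 and 98.8 CPM without knockdown and 102 and 102 CPM with it. The shSMARCA4 values lay between the 2 controls. On the log2 scale the fold change was 0.00 (SE 0.046; edgeR, adjusted p = 0.998), with a 95% interval of 0.931-fold to 1.07-fold. That interval does not reach the change of ATM, and the sign turned in 2 of 14 alternatives, within -0.04 to 0.05. Within each library, which needs no scaling between libraries, ATM had 0.661 and 0.721 reads per read of ATR in the controls and 0.867 and 0.870 in the shSMARCA4 libraries. These ratios did not overlap and were 1.26-fold higher in shSMARCA4 cells. With 2 libraries against 2 an exact permutation test cannot go below p = 0.33, so such ratios are given without a test.

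ATRIP (ENSG00000164053.22, chromosome 3, 48446737 to 48467645 on the plus strand), the partner that brings ATR to single-stranded DNA, was the 1 member that fell. It went from 20.9 and 20.02 CPM in the controls to 16.8 and 17.5 CPM, so that both shSMARCA4 libraries lay below both controls. The log2 fold change was -0.26 (SE 0.072), a level 0.837 times that of controls (95% interval 0.748 to 0.937; edgeR's quasi-likelihood test, adjusted p = 0.0255). The counts of ATRIP are uncertain, because the counted transcript runs through TREX1, the gene of a DNA exonuclease, which shares 1515 of its 4580 exon bases in GENCODE 29. In turn, all 1471 exon bases of the TREX1 transcript are shared with ATRIP, so reads there cannot be assigned to 1 of the 2 genes. The TREX1 row had 150 and 164 reads in the controls and 97 and 96 in the shSMARCA4 libraries. That row fell with a log2 fold change of -0.50 (SE 0.14; edgeR, adjusted p = 0.0231). The TREX1 call was lost with no filter, with DESeq2 and when either shSMARCA4 library was left out. The reads of the TREX1 row, some of which may come from ATRIP, were also taken off. ATRIP then kept 16.3 and 14.9 CPM in control cells, with 13.4 and 14.02 CPM after depletion. Its log2 fold change was then -0.19 (SE 0.084), which was not called (edgeR's quasi-likelihood test, adjusted p = 0.126). The ATRIP call was also lost with library totals (adjusted p = 0.0546 by edgeR), with no filter (0.0780), with DESeq2 (0.128), without shSMARCA4 library 1 (0.222) or 2 (0.0791), and with length and GC trends removed, where the log2 fold change was -0.16 (adjusted p = 0.167 by edgeR).

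Of the effector kinases, CHEK2 (ENSG00000183765.24, chromosome 22, 28687743 to 28742422 on the minus strand), the target of ATM, changed most among the 10 genes. It stood at 24.6 and 25.8 CPM without knockdown and 34.6 and 32.3 CPM with it. The groups did not overlap, and shSMARCA4 library 1 was the highest. On the log2 scale the fold change was 0.41 (SE 0.063), a 1.33-fold higher level (95% interval of the log2 value 0.27 to 0.55; edgeR's quasi-likelihood test, adjusted p = 0.00146), and all 14 alternatives kept the call. Of all genes tested, 22.4% had a larger absolute log2 fold change. CHEK2 has many pseudogene copies, and the 8 such rows of the table held 0 reads in every library. How reads shared with such copies were assigned was not tested. The counted CHEK2 transcript held 621 coding bases of 2560 exon bases in GENCODE 29.

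CHEK1 (ENSG00000149554.15, chromosome 11, 125625163 to 125657147 on the plus strand), the target of ATR, stood at 55.7 and 53.6 CPM without knockdown and 58.2 and 56.8 CPM with it. The groups were apart by less than the gap between the controls. The log2 fold change of 0.07 (SE 0.048) was not called (edgeR's quasi-likelihood test, adjusted p = 0.289), and its 95% interval ran from 0.976-fold to 1.13-fold. CHEK2 had 0.442 and 0.481 reads per read of CHEK1 in the controls and 0.595 and 0.568 in the shSMARCA4 libraries, ratios that did not overlap and were 1.26-fold higher.

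The log2 fold changes of the 3 subunits of the break-binding complex did not share a sign, and only that of NBN was called. NBN (ENSG00000104320.15, chromosome 8, 89931000 to 89984667 on the minus strand), which ties the complex to ATM, stood at 114 and 111 CPM without knockdown and 126 and 129 CPM with it. Both shSMARCA4 libraries lay above both controls. Its log2 fold change was 0.18 (SE 0.042), a 1.13-fold higher level (95% interval 1.06 to 1.21; edgeR's quasi-likelihood test, adjusted p = 0.0120). The call was lost without shSMARCA4 library 2, where the log2 fold change was 0.16 (adjusted p = 0.146 by edgeR).

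MRE11 (ENSG00000020922.13, chromosome 11, 94415570 to 94493844 on the minus strand), the nuclease, had 40.9 and 44.6 CPM without knockdown and 38.7 and 37.2 CPM with it. The shSMARCA4 values were the lower ones, and control library 1 lay nearer to them than to control library 2. On the log2 scale the fold change of -0.17 (SE 0.060) was not called (edgeR's quasi-likelihood test, adjusted p = 0.0598). Without control library 1 it was -0.23 and passed (adjusted p = 8.09e-04 by edgeR), and without control library 2 it was -0.11 and did not (adjusted p = 0.178 by edgeR).

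RAD50 (ENSG00000113522.14, chromosome 5, 132556977 to 132646349 on the plus strand), the ATPase that tethers ends, stood at 164 and 165 CPM without knockdown and 178 and 175 CPM with it. Relative to the level, its controls lay closer together than those of the other 9 genes. The log2 fold change of 0.11 (SE 0.039) was not called (edgeR's quasi-likelihood test, adjusted p = 0.0718). It passed with either control library left out (adjusted p = 0.0248 and 0.0223 by edgeR), with library totals (0.0119), with upper-quartile factors (0.0375) and with protein-coding genes alone (0.0452). Within libraries, NBN had 2.80 and 2.50 reads per read of MRE11 in the controls and 3.26 and 3.47 in the shSMARCA4 libraries. The ratio of RAD50 to MRE11 likewise went from 4.01 and 3.69 to 4.62 and 4.69. Both ratios lay higher in both shSMARCA4 libraries, 1.27-fold and 1.21-fold.

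Of the mediators, MDC1 (ENSG00000137337.16, chromosome 6, 30699807 to 30717281 on the minus strand), which binds phosphorylated H2AX beside breaks, stood at 97.0 and 104 CPM without knockdown and 107 and 110 CPM with it. The groups were separate by less than the gap between the controls. Its log2 fold change of 0.11 (SE 0.048) was not called (edgeR's quasi-likelihood test, adjusted p = 0.131), but it passed without control library 2 (0.16, adjusted p = 0.00313 by edgeR), with library totals (0.15, adjusted p = 0.0369 by edgeR) and with length and GC trends removed (0.17, adjusted p = 0.0239 by edgeR). Without control library 1 it dropped to 0.06 (adjusted p = 0.309 by edgeR).

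TOPBP1 (ENSG00000163781.14, chromosome 3, 133600271 to 133662380 on the minus strand), the activator of ATR, stood at 194 and 191 CPM without knockdown and 189 and 186 CPM with it. All 4 libraries lay within a narrow band. On the log2 scale the fold change was -0.04 (SE 0.039; edgeR, adjusted p = 0.508), with a 95% interval of 0.916-fold to 1.04-fold, and its sign turned to 0.01 with library totals. TOPBP1 had 1.85 and 1.93 reads per read of ATR in the controls and 1.86 and 1.82 in the shSMARCA4 libraries, ratios that overlapped.

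**Figure D3:**
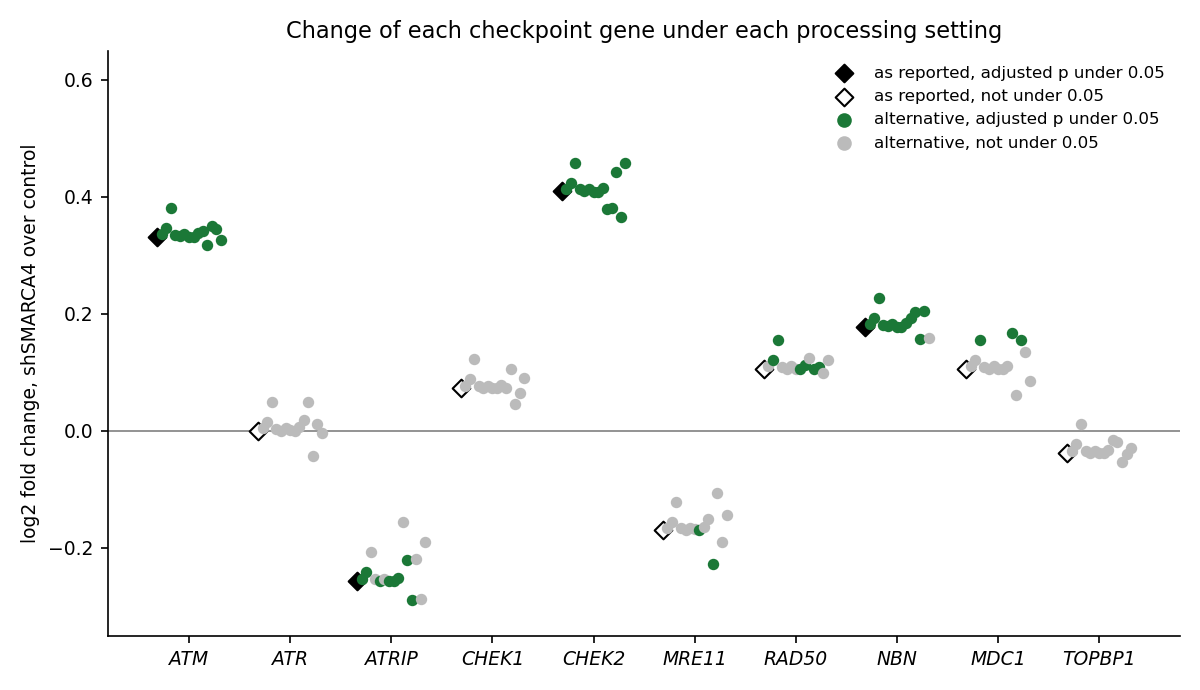
Log2 fold change of each gene (vertical axis) as reported (diamonds) and under each alternative (circles), filled or green where the adjusted p was under 0.05. ATM and CHEK2 are called in all 14 alternatives, NBN in 13 and ATRIP in 8 of 15, while ATR, CHEK1 and TOPBP1 are called in none.

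Several members share sequence or a start region with another gene, and reads on both strands were counted. ATM and NPAT, a coactivator of histone genes, are transcribed away from each other from counted starts 185 bases apart. NPAT stood at 52.2 and 56.0 CPM without knockdown and 57.3 and 56.4 CPM with it, and its log2 fold change of 0.07 (SE 0.052) was not called (edgeR's quasi-likelihood test, adjusted p = 0.338). Its 95% interval of -0.05 to 0.19 ended below the lower bound of ATM, 0.23, though the difference between the 2 genes was not tested. NPAT stood at 0.03 without control library 1 and 0.12 without control library 2, called in neither. Reads of ATM per read of NPAT went from 1.33 and 1.27 to 1.54 and 1.57.

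HSCB, a mitochondrial iron-sulfur chaperone gene, starts on the opposite strand inside the CHEK2 window printed above, at base 32 of it, and shares 301 of the 2560 exon bases of the counted CHEK2 transcript. It stood at 10.9 and 9.45 CPM without knockdown and 11.9 and 12.8 CPM with it. Its log2 fold change was 0.28 (SE 0.10; edgeR, adjusted p = 0.0687), and the ratio of CHEK2 to HSCB reads overlapped between groups. How many reads the 2 rows share was not tested. ANKRD49, which starts 164 bases from MRE11 on the other strand, had a log2 fold change of 0.24 (SE 0.097; edgeR, adjusted p = 0.0900), of opposite sign to MRE11. Without control library 1, HSCB (0.39) and ANKRD49 (0.34) were called higher, as they were with library totals, while without control library 2 they stood at 0.18 and 0.16 and were not called.

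RAD50 shares 7525 of its 8306 exon bases with ENSG00000283782, a protein-coding gene on the same strand, whose row held 4663 to 5156 reads and a log2 fold change of 0.11 (SE 0.039; edgeR, adjusted p = 0.0565). Most reads of the 2 rows therefore cannot be assigned to one of them. MDC1 overlaps the antisense gene MDC1-AS1 over 701 of 7576 exon bases. MDC1-AS1 had 268 to 377 reads and a log2 fold change of -0.07 (SE 0.11; edgeR, adjusted p = 0.674). ENSG00000244380, a non-coding gene on the other strand, starts 105 bases from ATRIP, at base 146 of the ATRIP window. It had 1325 to 1687 reads and a log2 fold change of 0.04 (SE 0.066; edgeR, adjusted p = 0.694). On the other strand, TH2LCRR overlaps RAD50 with 141 to 179 reads, and C11orf65 overlaps ATM with 26 to 32. Neither was called. For ATR and TOPBP1 the overlapping rows held at most 41 reads.

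**Figure D4:**
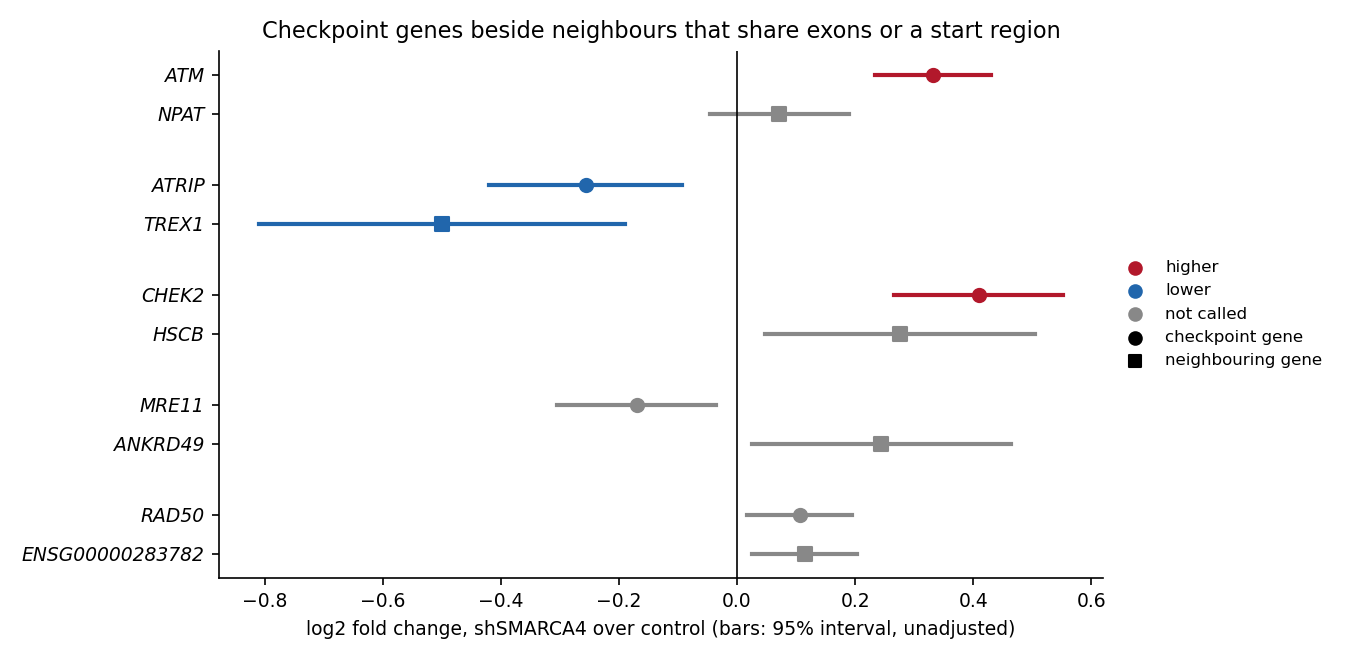
Log2 fold change of 5 checkpoint genes (circles) and of a neighbour that shares exons or a start region with each (squares), with unadjusted 95% intervals, coloured by the edgeR call. ATM at 0.33 lies to the right of NPAT at 0.07, and TREX1 at -0.50 lies to the left of ATRIP at -0.26.

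The genes whose centred log2 CPM over the 4 libraries lay nearest to ATM, the member with the smallest adjusted p, were LSM7, ZNF383 and POC1B-GALNT4, at distances of 0.0138, 0.0165 and 0.0173. Across 4 libraries such likeness is common: 2413 of 10877 protein-coding genes that averaged 5 CPM or more (22.2%) had a correlation of 0.9 or more with ATM.

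Other genes of the pathway moved by similar amounts in both directions. Of 67 protein-coding genes in 5 lists, all tested, 14 rose and 13 fell, with a median of 0.01. The share called, 40.3%, stands beside 29.7% of all genes tested and is near the 36% of protein-coding genes. The count was 9 with no filter on low counts, 17 without shSMARCA4 library 1 and 15 without shSMARCA4 library 2. Among all genes tested 13.8% rose and 15.8% fell, the shares to set beside the counts of each list below. Some list genes share exon bases with other genes in GENCODE 29, with the largest shares in CCNE2 (1519 of 2724) and KAT5 (1137 of 2296). Genes called that do so include TP53BP1 (3732 of 10384), PKMYT1 (352 of 2171), CDK2 (287 of 2296), PAXIP1 (511 of 3990) and PPP1CB (460 of 4893). The counted PLK1 transcript held 0 coding bases there, and that of PAXIP1 441. How many reads were shared was not tested. Values after a symbol below are log2 fold changes with their SE.

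Among 13 genes that load ATR and its clamp, 4 rose and 1 fell, with a median of 0.04. RPA2 (0.20 ± 0.046) and RPA3 (0.22 ± 0.061), subunits of the protein that coats single-stranded DNA, rose, as did the clamp loader subunit RFC5 (0.18 ± 0.043) and the clamp subunit HUS1 (0.23 ± 0.072). The largest RPA subunit, RPA1, stood at 0.04 ± 0.038. ETAA1 (-0.27 ± 0.059), which activates ATR independently of TOPBP1, fell from 30.8 and 31.5 CPM to 26.4 and 25.4 CPM, and both shSMARCA4 libraries lay below both controls. With DESeq2 only the RPA2 call was left of the 5. The calls of RPA3, RFC5 and ETAA1 were lost without shSMARCA4 library 2, and those of RPA2, RFC5 and HUS1 without shSMARCA4 library 1. With no filter on low counts all 5 calls of this list were lost.

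Of 16 other mediators and readers of marked chromatin, 4 rose and 4 fell, with a median of 0.06. CLSPN (-0.35 ± 0.050), the adaptor through which ATR reaches CHEK1, fell from 159 and 149 CPM to 125 and 117 CPM, and TIMELESS (-0.18 ± 0.042), a fork protection factor, fell with it. The groups did not overlap for either gene. H2AX (-0.28 ± 0.067), the histone that ATM marks, and RBBP8 (-0.20 ± 0.041), the cofactor of MRE11 in end resection, also fell. PAXIP1 (0.35 ± 0.054), ATMIN (0.25 ± 0.042), a cofactor of ATM, USP28 (0.23 ± 0.055) and TP53BP1 (0.17 ± 0.048) rose. Of the 8 calls, those of CLSPN, PAXIP1 and ATMIN held in all 14 alternatives, and they were the only 3 left without shSMARCA4 library 2. The RBBP8 and TIMELESS calls were also lost without shSMARCA4 library 1, those of TIMELESS and USP28 with DESeq2, those of TIMELESS, H2AX and USP28 with no filter, and those of TIMELESS and H2AX with length and GC trends removed. In all, the list held 5 calls with DESeq2 and 4 with no filter. BRCA1 stood at -0.03 ± 0.045.

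Of the other kinases of the family of ATM and ATR, with their chaperones, 3 of 11 genes rose and 1 fell (median 0.08). MTOR (0.23 ± 0.051), the growth kinase, TRRAP (0.27 ± 0.056), an acetyltransferase scaffold, and SMG1 (0.22 ± 0.066), the kinase of nonsense-mediated decay, rose. The DNA-PK subunit PRKDC stood at 0.15 ± 0.055 and did not pass (edgeR's quasi-likelihood test, adjusted p = 0.0731). Control library 2 was below control library 1 in all 4 of these genes. PRKDC had 624 and 556 CPM in the controls against 664 and 642 CPM in the shSMARCA4 libraries. Control library 2 was also below for ATR, at 98.8 against 105 CPM, whereas for ATM it was above. SMG1 stood at 0.34 without control library 1 and 0.11 without control library 2, and was called in both. RPAP3 (-0.15 ± 0.046), a chaperone adaptor, fell, a call lost with DESeq2 and in 6 other alternatives. With no filter on low counts all 4 calls of this list were lost. SMG1 has near-identical pseudogenes, whose 9 rows held 190 to 294 reads. These are long transcripts, and among 1234 tested protein-coding genes with over 8000 counted bases 21.5% rose and 21.5% fell, with a median of 0.02. With length and GC trends removed ATM stood at 0.34 and ATR at 0.02.

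Of 15 targets of the checkpoint in the cell cycle, 5 fell and 1 rose, with a median of -0.12. The kinases WEE1 (-0.26 ± 0.066) and PKMYT1 (-0.31 ± 0.071), which hold CDK1 inactive, fell, as did CDK2 (-0.13 ± 0.041), PLK1 (-0.24 ± 0.041) and AURKA (-0.21 ± 0.047). The G1/S cyclin CCNE1 (0.43 ± 0.067) rose from 18.8 and 18.1 CPM to 25.3 and 24.3 CPM. CDK1 (-0.14 ± 0.047) and CCNB1 (-0.10 ± 0.043) did not pass. Of the 6 calls, those of PLK1 and CCNE1 held in all 14 alternatives and were the 2 left with no filter, and 11 genes of the list were called without control library 1. Without shSMARCA4 library 1 the calls of WEE1 (-0.17), PKMYT1 and CDK2 were lost, and without library 2 those of AURKA and CDK2. The CDK2 call was also lost with DESeq2, upper-quartile factors and library totals (-0.09). With length and GC trends removed PKMYT1 was -0.20 and did not pass (adjusted p = 0.0929 by edgeR).

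Of 12 phosphatase genes and brakes, 2 rose and 2 fell (median 0.00). PPP1CB (-0.48 ± 0.039), a catalytic subunit of protein phosphatase 1, had the largest change of the 67 genes and fell from 288 and 296 CPM to 208 and 210 CPM, while its sister subunits PPP1CA (0.02 ± 0.041) and PPP1CC (0.09 ± 0.043) did not pass. PPP4R2 (-0.18 ± 0.042), a subunit of the phosphatase that clears phosphorylated H2AX, fell, a call lost when either shSMARCA4 library was left out. PPP2CB (0.24 ± 0.042) and HERC2 (0.26 ± 0.055) rose, the latter call lost with no filter. PPM1D (0.03 ± 0.061), a phosphatase that turns ATM signalling off, did not pass.

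**Figure D5:**
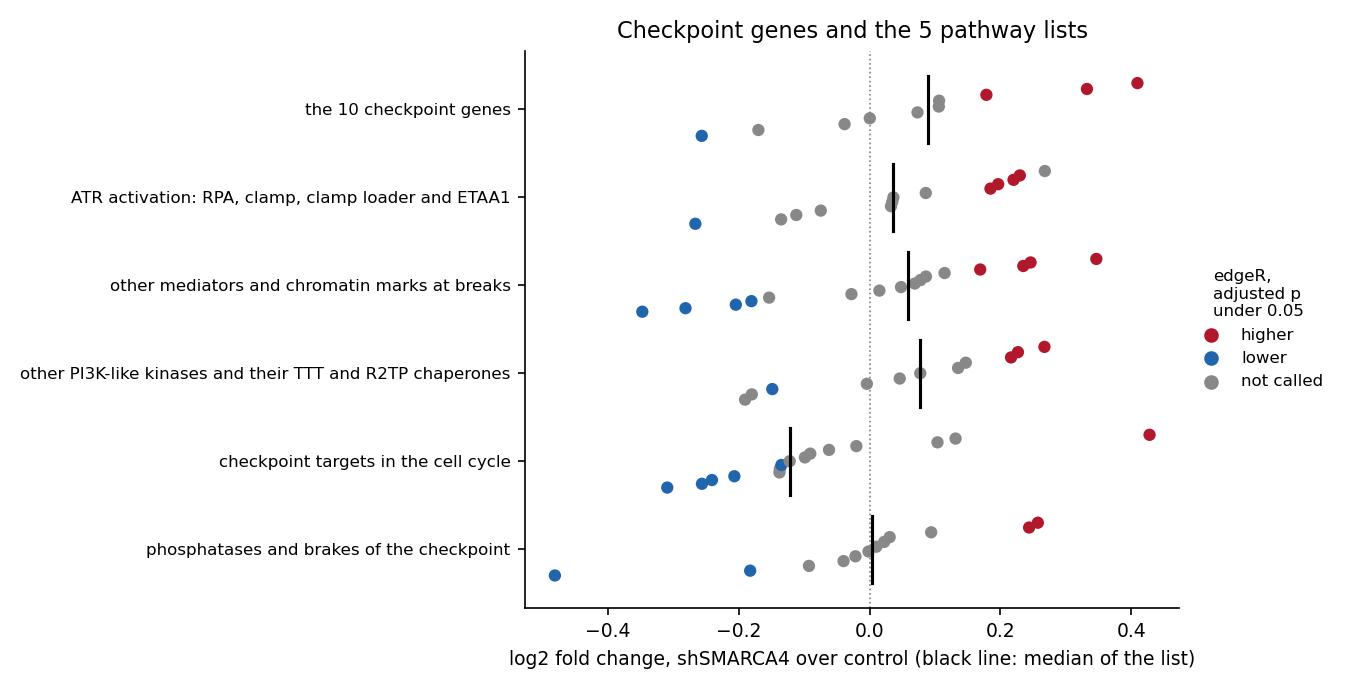
Log2 fold change of every gene of the 10 checkpoint genes and the 5 pathway lists (points, coloured by the edgeR call), with a black line at each list's median. The cell cycle targets have the lowest median at -0.12 and the 10 checkpoint genes the highest at 0.09, and calls of both directions occur in every list.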

How the data were processed

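Raw gene counts were deposited. Per the file headers, the authors ran HOMER analyzeRepeats on exons (GENCODE 45, hg38), on both strands, with 1 transcript kept per gene and no adjustment. The table's length column, another unit (bases of counted exon), was also deposited. The header command names 6 libraries, and the table's 4 value columns, which match the samples' descriptions, were used. Reads were aligned with STAR 2.6.1c, and DESeq2 1.19.38 is also named, per the submitters' processing notes.

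Genes were filtered with filterByExpr (count minimum 10), leaving 18781 of 63241, scaled by trimmed means of M values and tested with edgeR 4.0.16 in R 4.3.3 (glmQLFit, glmQLFTest, two-sided), with p-values adjusted (Benjamini-Hochberg) across tested genes and called under 0.05. The design had the group only. An SE is the size of the log2 fold change over the square root of F, and 95% intervals are unadjusted. Replicate counts differed beyond sampling noise (chi-square 6.33 and 1.88 per degree of freedom in control and shSMARCA4 libraries). The fit was also run on simulated counts. Those gave every gene and group the same relative spread, unlike these libraries, so that run cannot show how the fit performs on them. Exon overlaps and GC content came from GENCODE 29 on the same assembly, which held 97.0% of tested genes. Start windows came from RefSeq (GRCh38.p14).

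The 10 genes and the lists were chosen with earlier results of these data known. Named by rule were the 10 genes, SMARCA4, up to 4 called genes per list by smallest adjusted p, overlapping or divergent neighbours with starts within 1000 bases, and the 3 genes nearest to the leading member. HUS1, TIMELESS, H2AX, USP28, TP53BP1, WEE1, CDK2 and list members that did not pass were named after their values were seen. Some genes of the pathway are not reported here.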

Additional observations from a re-analysis of the deposited data

How the results depend on the processing

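Alternatives were 3 other scalings, 2 other filters, DESeq2 1.42.0, limma-voom 3.58.1, the replicate block, protein-coding genes alone and each library left out, with 2 more chosen after seeing the data (length and GC content trends removed, and TREX1 reads taken off ATRIP). ATM and CHEK2 kept direction and call in all 14 alternatives run for each. With no filter on low counts 3187 genes were called (1403 higher, 1784 lower) and 9 of the 67 pathway genes, and with DESeq2 3555 (1625 and 1930). Leaving out 1 library gave 3801 to 7446 genes, 1724 to 3618 higher and 2077 to 3828 lower, 2 to 6 of the 10 checkpoint genes and 15 to 39 of the pathway genes. Without shSMARCA4 library 2 the 2 called were ATM and CHEK2. Fits that leave a group with 1 library assume that it varies like the other group. Genes that rose made up 46.6% of calls as reported and 59.5% with library totals alone, where 5 checkpoint genes were called higher and 0 lower.

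The replicate numbers were shared between groups, but same-numbered libraries hardly deviated together (correlation 0.0645 over 18780 genes). That correlation takes in genes with few reads, so it cannot show whether the numbers pair libraries. With the replicate block 6749 genes were called, and 6 of the 10 checkpoint genes, MRE11 (-0.17, adjusted p = 0.0363 by edgeR) and RAD50 (0.11, adjusted p = 0.0448 by edgeR) joining the 4 reported.

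ATRIP, with the fewest reads, had the largest SE of the 10 genes (0.072), against 0.039 for RAD50 and TOPBP1. Without division by length, ATM ranked above CHEK1, MRE11 and CHEK2 in controls.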
